A study of Mus musculus with 4 samples.

Results

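Formins, WASP-family proteins and Ena/VASP proteins start or speed the growth of actin filaments, and their genes carry long stretches of consecutive proline codons. A total of 10 such genes was examined by ribosome profiling (Ribo-seq), in which the pieces of mRNA shielded from nuclease by translating ribosomes are sequenced. They were picked by name from a table of 55573 genes, for their family and their proline runs. The set held 6 formins (Diaph1, Diaph2, Diaph3, Daam1, Fmnl2 and Fmnl3), 2 WASP-family genes (Wasl and Wasf2) and 2 Ena/VASP genes (Vasp and Enah). All 10 reached a mean of at least 1 RPKM (reads per kilobase of gene, scaled between libraries) and so were among the 11363 genes tested.

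The libraries came from primary myoblasts, dividing muscle precursors grown in culture, of mouse hind-limb muscle. The mice were 3 weeks old, and the cells proliferated with FGF at 10 µg/ml and were taken at day 2. There were 2 libraries from wild-type (WT) mice and 2 labelled eIF5A knockout (KO), the latter from mice with a tamoxifen-induced Pax7-CreERT2 and floxed eIF5A alleles. Cre is then active only in cells that express Pax7, so cells outside that lineage keep the gene. The study calls the controls littermates and describes their genotype in some places with the Cre and in another without it. The study describes the Ribo-seq as done in duplicate, but the sources do not say whether the libraries of a group came from separate mice or cultures, so p-values measure only the spread between these libraries, which may be technical.

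Diaphanous formins, Daam1 and the Fmnl formins sit at the growing end of an unbranched filament, and their proline-rich segment captures actin bound to profilin. Wasl (N-WASP) and Wasf2 (WAVE2) switch on the Arp2/3 complex, which starts branched filaments, and Vasp and Enah (Mena) lengthen filaments at the cell edge and at adhesions. In muscle precursors such filaments drive migration and the fusion of myoblasts. eIF5A, which needs a hypusine residue made from spermidine, helps the ribosome form peptide bonds between consecutive prolines, and for this reason these genes have been regarded as candidates for dependence on it.

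The longest proline run of 8 of the genes is shown in coding bases because it is the feature that defines the set. The bases are those of the GRCm38 (mm10) reference, spliced as in the longest complete coding sequence of GENCODE vM21 and read 5′ to 3′ on the coding strand. Capitals mark the codons of the run, and lower case marks the 4 codons on either side.
Enah, chr1:181921887-181921961, minus strand, exon 7 of 15: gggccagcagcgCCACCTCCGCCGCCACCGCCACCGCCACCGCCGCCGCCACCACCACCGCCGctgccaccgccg
Diaph3, chr14:86966475-86966537, minus strand, exon 16 of 28: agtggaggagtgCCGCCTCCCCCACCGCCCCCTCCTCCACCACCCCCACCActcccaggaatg
Diaph2, chrX:129971330-129971389, plus strand, exon 16 of 27: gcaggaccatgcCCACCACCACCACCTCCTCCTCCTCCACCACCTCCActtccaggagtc
Wasl, chr6:24619371-24619427, minus strand, exon 9 of 11: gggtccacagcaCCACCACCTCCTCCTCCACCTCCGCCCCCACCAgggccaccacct
Wasf2, chr4:133194721-133194774, plus strand, exon 7 of 8: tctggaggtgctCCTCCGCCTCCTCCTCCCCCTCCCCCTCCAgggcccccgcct
Daam1, chr12:71951908-71951949, plus strand, exon 14 of 26: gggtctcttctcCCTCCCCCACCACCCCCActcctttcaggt
Fmnl3, chr15:99322876-99323356, minus strand, across the junction of exons 14 and 15 of 27: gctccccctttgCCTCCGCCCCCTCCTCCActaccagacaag
Vasp, chr7:19261010-19261048, minus strand, exon 6 of 13: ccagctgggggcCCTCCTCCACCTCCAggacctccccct

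The runs spanned 18 codons in Fmnl2, 17 in Enah, 13 in Diaph3, 12 in Diaph2, 11 in Wasl, 10 in Wasf2, 8 in Diaph1, 6 in Daam1 and in Fmnl3, and 5 in Vasp. Of the 9869 protein-coding genes tested that had a coding sequence in the reference, 106 (1.07%) held a run of 8 codons or more, and 7 of the 10 genes were among them. The codons used in the runs differed. The Enah run had CCG 9 times and CCA 7 times. In Diaph2 the run consisted of CCA 7 times and CCT 5 times, with no CCC or CCG.

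The families also differed in where the prolines lie. In Diaph2, Daam1, Fmnl2 and Fmnl3 every run of at least 3 proline codons lay between codons 519 and 610 of sequences of 1028 to 1102 codons. Diaph1 (1264 codons) had 12 such runs between codons 595 and 744, and Diaph3 had its runs from codon 566 on, with a last short run that ended at codon 921. Wasl and Wasf2, of 501 and 497 codons, were denser in proline, which made up 17.4% and 19.3% of their codons in comparison with 5.57% to 9.97% in the formins. Vasp had 14.1% and Enah 18.3%. The run also depends on the transcript: over the complete coding transcripts of a gene the longest run went from 1 to 13 codons in Diaph3, from 5 to 18 in Fmnl2, from 2 to 11 in Wasl and from 6 to 17 in Enah, and counts per gene do not show which transcript was read.

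**Figure D1:**
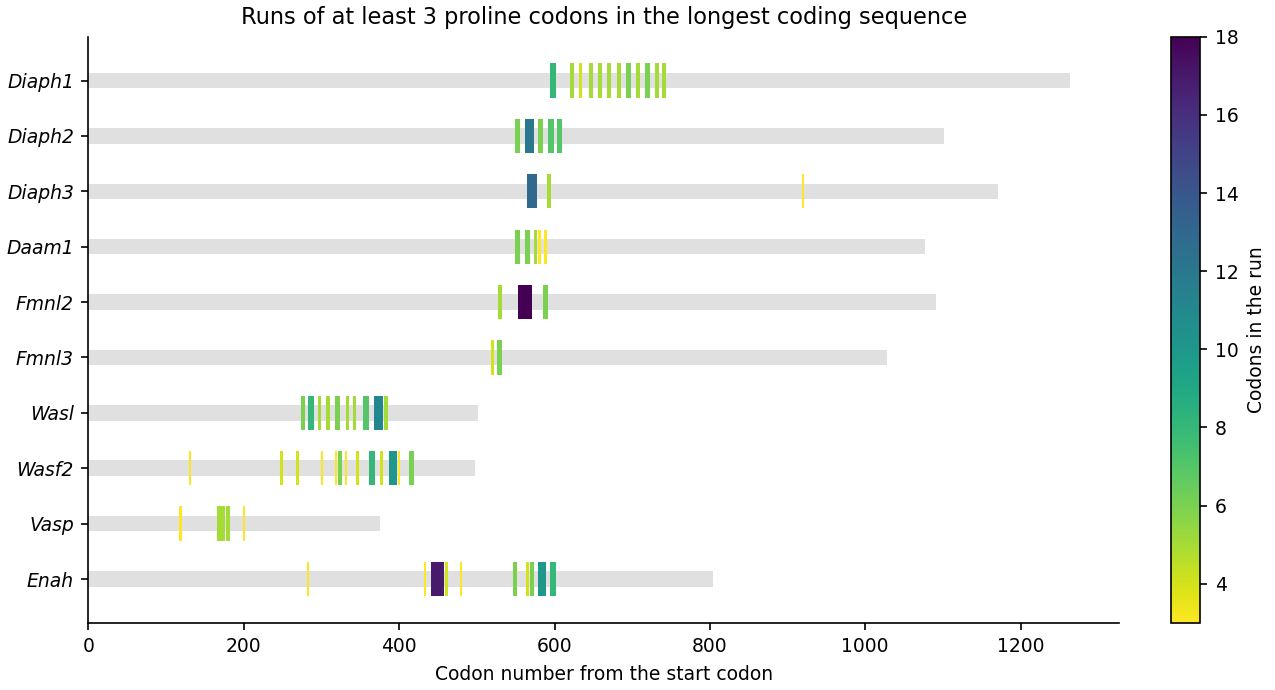
Runs of at least 3 consecutive proline codons along the longest coding sequence of each of the 10 genes. The x axis is the codon number from the start codon, the grey bar is the whole coding sequence and the colour gives the number of codons in the run; the formin runs lie together in the middle of the sequence, from codon 519 on, apart from a short one in Diaph3, and the longest, in Fmnl2, has 18 codons.

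The table gave 648386 and 642429 gene-assigned reads for WT replicates 1 and 2, and 704006 and 650210 for the KO-labelled libraries, of which 41.5%, 33.9%, 65.4% and 59.2% lay on protein-coding genes. Together the 10 genes collected 468 and 226 WT reads, and 528 and 422 KO-labelled ones, or 0.174%, 0.104%, 0.115% and 0.110% of the protein-coding reads. Both KO-labelled shares lay between the WT shares. The targeted gene, Eif5a, did not separate the groups, with 50 and 73 WT reads (34.9 and 65.2 RPKM) against 130 and 114 KO-labelled reads (60.3 and 59.4 RPKM), so the knockout is named here only as a label.

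None of the 10 genes differed between the groups at an adjusted p-value of 0.05 (limma on log2(RPKM + 1), Benjamini-Hochberg adjustment over all genes tested). Over all genes tested, 12 passed that threshold (0.106%), none of them protein-coding. At an unadjusted p-value under 0.05 there was 1 of the 10 genes, Diaph3, against 7.32% of all genes tested, and the same gene was the 1 with at least a 2-fold difference as well, against 6.96%. The difference, KO minus WT, was below 0 in 4 of the 10 genes and above 0 in 6, while 50.0% of all genes tested lay below 0. The groups did not overlap in 4 of the 10 genes, against 40.4% of all genes. Both KO-labelled libraries lay below both WT libraries for Wasf2 and Fmnl3 (20.3% of all genes) and above them for Diaph2 and Diaph3 (20.1% of all genes). The median difference of the 10 genes was 0.066 on the log2 scale, against 0.00026 for all genes tested and 0.049 for the protein-coding ones. Among 10 genes these counts lie near the background. On total gene-assigned reads, a scaling that moves the median of all genes to 0.47, the median of the 10 was 0.51. On the deposited scale and with a library left out, the median ran from -0.25 (without WT replicate 2) to 0.28 (without WT replicate 1), and it was -0.084 without KO-labelled replicate 1.

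**Figure D2:**
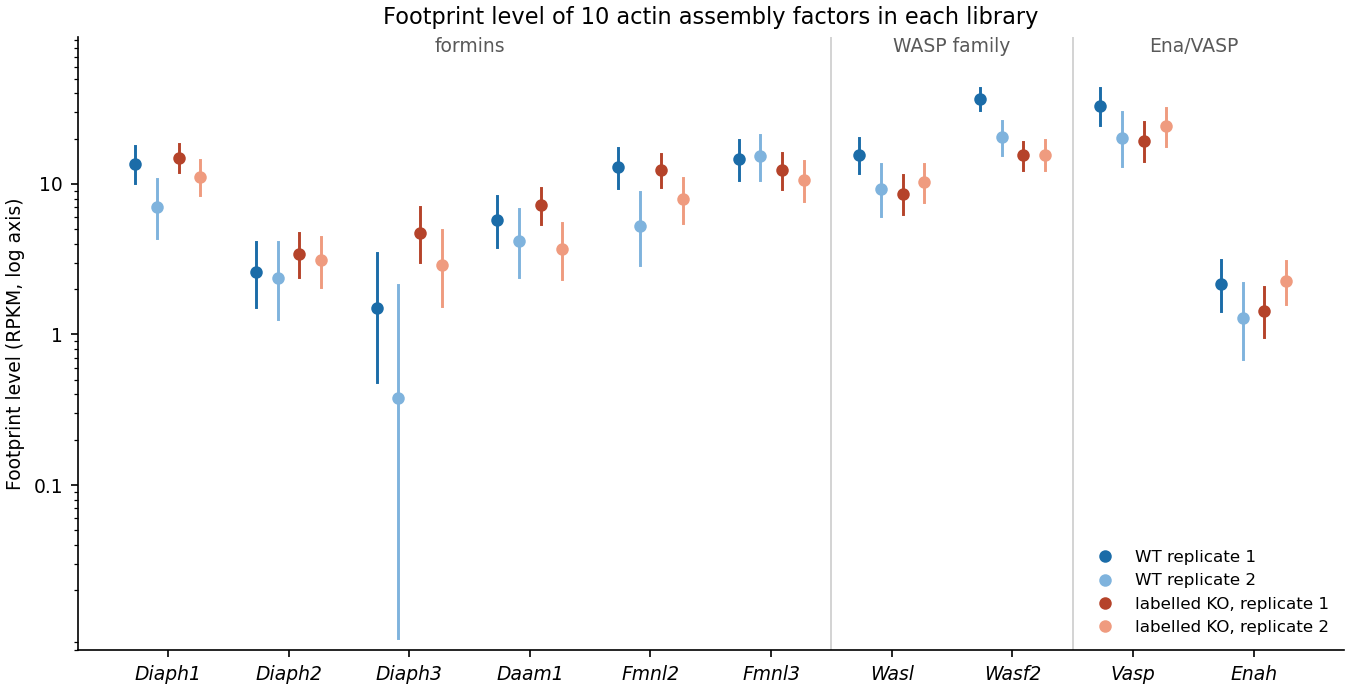
Footprint level of each gene in each library, in RPKM per kilobase of the whole gene on a log axis, with bars for the 95% Poisson interval of its reads (counting error only). WT is blue and labelled KO is red; Diaph3 and Diaph2 have both labelled KO points above both WT points, Wasf2 and Fmnl3 have them below, and in the other 6 genes the groups overlap.

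Among the formins, Diaph3 had the largest difference of the set. Diaph3 (ENSMUSG00000022021, chromosome 14, 86655367 to 87141235, minus strand) is a diaphanous formin that acts in filopodia and in dividing cells. WT replicates 1 and 2 gave 5 and 1 reads (1.49 and 0.381 RPKM), and the KO-labelled replicates gave 24 and 13 reads (4.75 and 2.89 RPKM). Both KO-labelled libraries were above both WT libraries, but WT replicate 2 was under the floor of 3 reads below which a level cannot be told from 0. Means were 0.935 ± 0.784 RPKM for WT against 3.82 ± 1.32 for the KO label (SD, n = 2), and the ratio of summed reads, after scaling, was 3.86 with a 95% interval from 1.62 to 11.2 that covers counting error only. On the log2 scale the difference came to 1.35 ± 0.54 (SE; 95% interval 0.026 to 2.68), unadjusted p = 0.0469 and adjusted p = 0.672 in limma. Its sign held with each library left out, with differences from 0.93 to 1.78. Such fits leave 1 group with a single library that is assumed to vary like the other group, and their unadjusted p-values in limma went from 0.045, where WT was the library with 1 read, to 0.176.

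The values of 12 cell division genes lay on the same side as Diaph3. All 12 had differences above 0, with a median of 0.53. With a library left out the median ran from 0.40 (without KO-labelled replicate 1) to 0.84 (without KO-labelled replicate 2). It was 0.37 with a trend on GC content and coding length removed from each library, and 1.01 on total reads. In 7 of the 12 genes both KO-labelled libraries lay above both WT libraries (20.1% of all genes). Their summed level was 41.0 and 52.3 RPKM for WT, 100.2 and 61.4 RPKM for the KO label. None of the 12 had an unadjusted p-value under 0.05, and their part in the Diaph3 difference was not tested.

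Diaph2 (ENSMUSG00000034480, chromosome X, 129749742 to 130465834, plus strand), another diaphanous formin, had replicates that lay close together. WT reads were 18 and 13 and KO-labelled reads 36 and 29, or 2.58 and 2.39 RPKM against 3.44 and 3.11 RPKM. The groups did not overlap, but the counting intervals of all 4 libraries did, and the log2 difference of 0.29 ± 0.38 (SE) ran from -0.65 to 1.24 in its 95% interval (adjusted p = 0.813, limma). Leaving out any library gave 0.24 to 0.35, but with a trend on GC content and coding length removed from each library it was 0.052, and on total reads 0.75.

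Diaph1, the founding diaphanous formin which makes stress fibres (ENSMUSG00000024456, chromosome 18, 37843601 to 37935476, minus strand), stood at 13.6 and 7.03 RPKM for WT against 15.0 and 11.1 RPKM for the KO label, from 52, 21, 86 and 57 reads. The groups overlapped, since WT replicate 1 stood between the KO-labelled libraries. The log2 difference of 0.36 ± 0.46 (SE) turned to -0.070 without WT replicate 2. The 3 diaphanous formins thus all had values above 0 with all 4 libraries, with only the Diaph3 interval clear of 0.

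Daam1 (ENSMUSG00000034574, chromosome 12, 71831078 to 71992333, plus strand) links Wnt signalling to actin, and its footprints gave values of similar size, at 5.74 and 4.19 RPKM for WT against 7.22 and 3.67 RPKM for the KO label. Here the KO-labelled libraries were the highest and the lowest of the 4. Its log2 difference of 0.067 ± 0.44 (SE) had an interval of -1.01 to 1.14, and it was -0.34 without KO-labelled replicate 1 and -0.095 after removal of the GC and length trend. Fmnl2 (ENSMUSG00000036053, chromosome 2, 52857860 to 53133804, plus strand), which extends filaments in lamellipodia and filopodia, measured 12.9 and 5.27 RPKM for WT against 12.3 and 7.91 RPKM for the KO label. Its WT libraries bracketed the others, and the log2 difference was 0.22 ± 0.52 (SE), 0.80 without WT replicate 1, -0.36 without WT replicate 2 and 0.018 after removal of the GC and length trend. The gene with the longest run of the set therefore showed a replicate spread (1.15 on the log2 scale between the WT libraries) several times its difference between groups.

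Fmnl3 (ENSMUSG00000023008, chromosome 15, 99317225 to 99370482, minus strand) was the only formin of the 6 with a difference below 0. It is close in sequence family to Fmnl2 and is known from filopodia and blood vessel growth. WT gave 44 and 36 reads and the KO label 56 and 43, which after scaling were 14.5 and 15.2 RPKM against 12.3 and 10.6 RPKM. Both KO-labelled libraries were lower. A log2 difference of -0.35 ± 0.37 (SE; interval -1.27 to 0.56, adjusted p = 0.761, limma) resulted, and leaving out any library gave -0.45 to -0.26. On total gene-assigned reads it was 0.22, above 0 but below the median of all genes on that scale.

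Wasf2 had the largest difference below 0. WAVE2 is the subunit through which Rac switches on the Arp2/3 complex in lamellipodia, and its gene is ENSMUSG00000028868, chromosome 4, 133130505 to 133199756, plus strand. WT reads numbered 139 and 60 and KO-labelled reads 88 and 79, equal to 36.8 and 20.4 RPKM against 15.5 and 15.6 RPKM. The KO-labelled libraries lay close to each other and below both WT libraries, which differed from one another by more than WT replicate 2 differed from them. Group means were 28.6 ± 11.7 RPKM for WT against 15.6 ± 0.0886 RPKM for the KO label (SD, n = 2), a ratio of 1.84. The log2 difference was -0.78 ± 0.45 (SE; interval -1.88 to 0.32), unadjusted p = 0.134 and adjusted p = 0.697 in limma. It stayed below 0 with each library left out, at -0.37 without WT replicate 1 and -1.19 without WT replicate 2. In the latter fit, which assumes that the lone WT library varies like the KO-labelled pair, the unadjusted p was 0.023 and the adjusted p 0.342 (limma). On total reads it was -0.20.

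Wasl (ENSMUSG00000029684, chromosome 6, 24613805 to 24665009, minus strand), the WASP-family member that answers to Cdc42, was measured at 15.6 and 9.30 RPKM for WT against 8.58 and 10.2 RPKM for the KO label, from 58, 27, 48 and 51 reads. WT replicate 1 stood above the other 3 libraries, which lay close together. A log2 difference of -0.33 ± 0.42 (SE) became 0.012 without WT replicate 1, 0.22 on total reads and -0.58 after removal of the GC and length trend. Leaving out WT replicate 1 brought both WASP-family genes nearer to 0.

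The groups overlapped in both Ena/VASP genes. Vasp (ENSMUSG00000030403, chromosome 7, 19256929 to 19271817, minus strand), which bundles and extends filaments at focal adhesions, reached 33 and 20.3 RPKM for WT against 19.4 and 24.1 RPKM for the KO label. WT replicate 1 was again the highest, and the other 3 libraries were mixed. Its log2 difference of -0.25 ± 0.44 (SE) became 0.089 without WT replicate 1, 0.34 on total reads and 0.086 after removal of the GC and length trend. Enah (ENSMUSG00000022995, chromosome 1, 181896384 to 182019990, minus strand) was low, at 2.17 and 1.29 RPKM for WT against 1.44 and 2.25 RPKM for the KO label, and the groups alternated from the highest library to the lowest. The difference was 0.066 ± 0.51 on the log2 scale (SE; interval -1.19 to 1.32), and it was -0.17 without WT replicate 2 and 0.19 after removal of the GC and length trend. Enah has a run of 17 codons, the second longest here, and only 13 to 39 reads in a library.

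**Figure D3:**
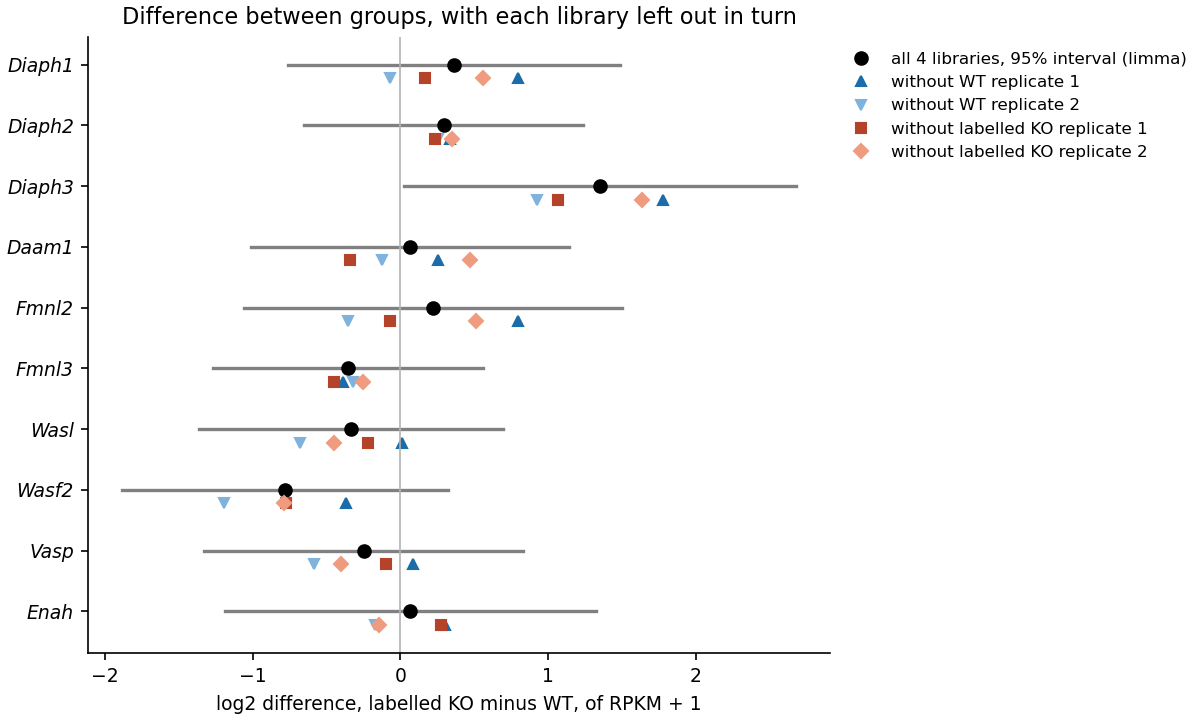
Log2 difference of RPKM + 1 for each gene, labelled KO minus WT, with all 4 libraries (black, with the 95% interval from limma) and with each library left out in turn (coloured marks). The interval of Diaph3 is the only one of the 10 that does not reach 0; the marks of Diaph2, Diaph3, Fmnl3 and Wasf2 stay on one side of 0, and those of the other 6 genes lie on both sides.

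A spread between replicates ran through the whole set. In 9 of the 10 genes WT replicate 1 was higher than WT replicate 2, Fmnl3 being the exception, with a median log2 difference of 0.68. Over all genes tested the median of the same difference was 0.0, and 48.8% were higher in WT replicate 1. Between the KO-labelled libraries the median over the 10 genes was 0.15, with 6 of 10 higher in replicate 1. Against WT replicate 1, those of the KO label had medians of -0.15 and -0.43 for replicates 1 and 2, and against WT replicate 2 they had medians of 0.24 and 0.26. Which WT library was used therefore set the sign for most of the set: without WT replicate 1, 2 of the 10 genes (Fmnl3 and Wasf2) lay below 0, and without WT replicate 2, 8 did, all except Diaph2 and Diaph3.

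The make-up of the set can be read without any scaling between libraries, as each gene's share of the reads of all 10. Wasf2 took 29.7% (95% Wilson interval 25.7 to 34.0) and 26.5% (21.2 to 32.7) of the WT reads, and 16.7% (13.7 to 20.1) and 18.7% (15.3 to 22.7) of the KO-labelled reads. It was the largest share in every library, and both KO-labelled libraries were lower, the intervals of WT replicate 2 and KO-labelled replicate 2 overlapping slightly. In KO-labelled replicate 1 the rank rested on 88 reads of Wasf2 against 86 of Diaph1. Diaph3 took 1.07% (0.457 to 2.48) and 0.442% (0.0782 to 2.46) for WT against 4.55% (3.07 to 6.67) and 3.08% (1.81 to 5.20). Diaph1, at 11.1% and 9.29% against 16.3% and 13.5%, and Diaph2, at 3.85% and 5.75% against 6.82% and 6.87%, were also higher in both KO-labelled libraries. Their intervals overlapped between the groups. For Diaph1 they were 8.57 to 14.3 in WT replicate 1 and 10.6 to 17.1 in KO-labelled replicate 2. For Diaph2 they were 3.39 to 9.59 in WT replicate 2 and 4.83 to 9.70 in KO-labelled replicate 2. By family, the formins held 40.8% and 44.7% of these reads for WT against 60.2% and 47.9% for the KO label. WASP-family genes held 42.1% and 38.5% against 25.8% and 30.8%. In both families the intervals of WT replicate 2 and KO-labelled replicate 2 overlapped. They were 38.4 to 51.2 and 43.1 to 52.6 for the formins, and 32.4 to 45.0 and 26.6 to 35.4 for the WASP family. The Ena/VASP genes overlapped, at 17.1% and 16.8% against 14.0% and 21.3%. The shares of a library add up to the whole, so a lower share of Wasf2 raises the others, and Diaph1 overlapped between the groups by level. No test was made of these shares; an exact permutation test of 2 libraries against 2 cannot give a p-value under 0.333.

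**Figure D4:**
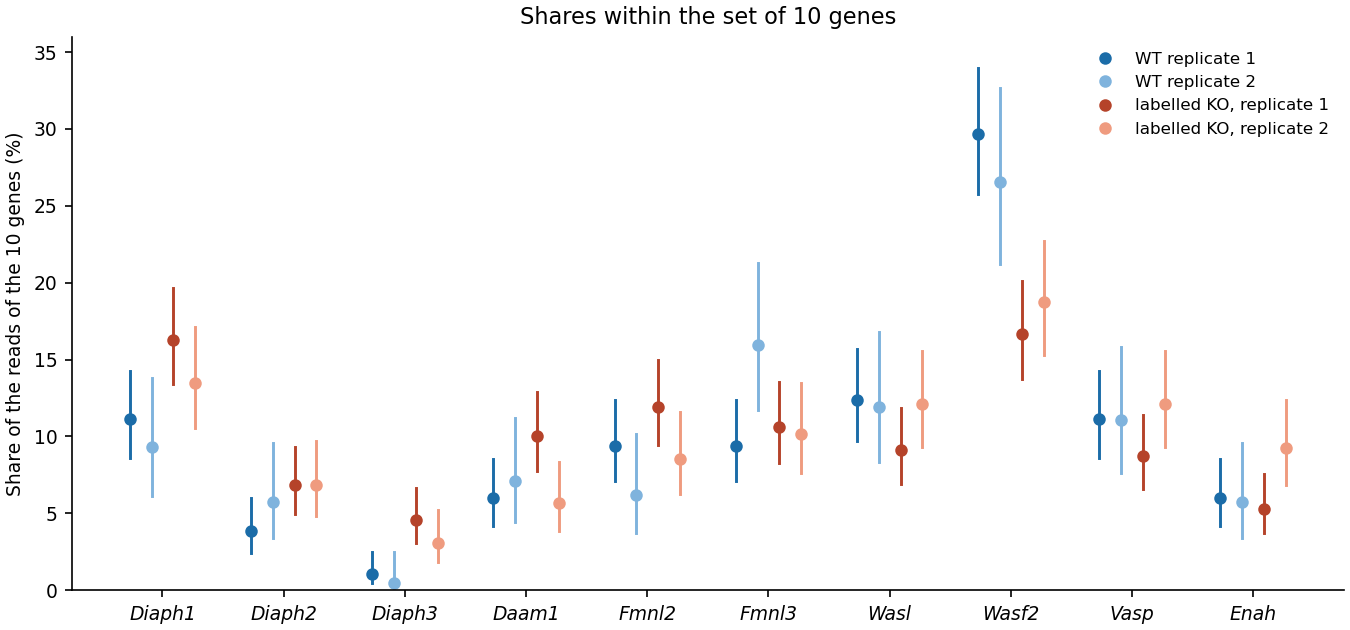
Share of the reads of the 10 genes that fell on each gene, in percent, for each library, with bars for the 95% Wilson interval (counting error only). The share of Wasf2 is 26.5% to 29.7% for WT against 16.7% to 18.7% for the KO label, and that of Diaph3 is at most 1.07% against at least 3.08%.

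Levels can be compared between genes only per length of what is translated, since untranslated bases dilute the deposited values. All reads of a gene were divided by the length of its longest coding sequence, so any reads outside that sequence raise the value. Per kilobase of coding sequence, the mean over the 4 libraries was highest for Wasf2 (92.7 ± 42.4 RPKM, SD), followed by Vasp (56.3 ± 14.4) and Wasl (44.8 ± 13.1). The ranges of these neighbours overlapped across libraries, but Wasf2 was above Vasp and Vasp above Wasl within each of the 4 libraries. After a gap came Fmnl3 (21.4 ± 3.44), Diaph1 (19.5 ± 5.82), Fmnl2 (16.6 ± 6.31), Enah (15.9 ± 4.39), Daam1 (13.0 ± 4.02) and Diaph2 (10.1 ± 1.68), each overlapping the next. Diaph3 was lowest (3.77 ± 2.99) and its range lay apart from that of Diaph2. On the deposited scale, per kilobase of the whole gene, Enah had the lowest mean over the 4 libraries (1.79 RPKM, against 2.38 for Diaph3). Diaph3 was lower than Enah in both WT libraries, and Enah was lower in both KO-labelled ones. The gene model of Enah is 21452 bases long against 2412 coding bases.

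Proline content did not order the differences of the 10 genes in one direction. Over the 10 genes the Spearman correlation of the log2 difference was 0.38 with the longest run and -0.50 with the percentage of proline codons, which is higher in the 4 shortest of the 10 coding sequences than in the formins. With coding length it was 0.87, and with coding GC content -0.61. After a trend on GC content and coding length had been removed from each library, these became 0.23, -0.22, 0.56 and -0.10 in the same order. The genes share libraries, and length, GC content and family run together in them, so these values are a description only.

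Genes with long runs in general are given for comparison. Among all protein-coding genes tested, the median log2 difference was 0.12 with a longest run of at most 2 codons (7328 genes), -0.089 with 3 (1667 genes), -0.19 with 4 (473 genes), -0.22 with 5 to 7 (295 genes) and -0.16 with 8 or more (106 genes). The GC content of the coding sequence moved along with it, from a median of 52.5% in the first bin to 57.2% for 5 to 7 codons and 55.3% for 8 or more. After removal of the GC and length trend the bins had medians of 0.032, -0.035, -0.091, -0.076 and -0.068, and without WT replicate 1 they had 0.052, -0.026, -0.056, -0.064 and 0.027. The part of GC content in the bins was not tested further. The last 2 bins hold the 10 genes themselves, and the difference between them and the other genes of a bin was not tested.

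Of the 15 other formin, WASP-family and Ena/VASP genes, 8 were tested, all with proline runs of at least 3 codons and a median longest run of 10.5. Of these 8, 7 had differences below 0, and the median was -0.51. It was -0.19 without KO-labelled replicate 1 and -0.047 on total reads, and -0.35 after removal of the GC and length trend. Jmy, a WASP-family protein that starts filaments and also acts with p53, gave 45 and 24 WT reads against 20 and 21 KO-labelled reads, a log2 difference of -1.11 ± 0.38 (SE), unadjusted p = 0.0283 and adjusted p = 0.672 in limma. It was the only gene of this list under 0.05 before adjustment. The median coding GC content of these 8 genes was 57.7%, against 47.5% for the 6 formins, 51.6% for the 2 WASP-family genes and 58.6% for the 2 Ena/VASP genes of the set.

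Of the Arp2/3 complex, which Wasl and Wasf2 switch on, 9 of 10 genes were tested and 8 had differences above 0, with a median of 0.46 and none under an unadjusted p-value of 0.05. Actr2, the Arp2 subunit, gave 47 and 64 WT reads against 161 and 130 (log2 difference 0.69 ± 0.45 SE, unadjusted p = 0.176, limma). Of the WAVE complex and the WIP proteins that hold Wasl, 8 of 11 were tested, 6 above 0 and 2 below, with a median of 0.11. Wipf1, the WIP protein, was lower in both KO-labelled libraries, at 3.55 and 6.72 RPKM against 11.8 and 11.5 RPKM for WT (log2 difference -1.10 ± 0.42 SE, unadjusted p = 0.0406, adjusted p = 0.672, limma). On total reads the medians of the lists were 1.05 and 0.54, in the order given, and with a library left out they ran from 0.16 to 0.70 and from 0.045 to 0.37. After removal of the GC and length trend they were 0.27 and -0.051, so the sign of the WAVE and WIP median depends on that choice.

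The actin and profilin genes had no call either. All 4 tested actin and profilin genes had differences above 0, with a median of 0.51. The median was 0.034 without WT replicate 1, 1.10 without WT replicate 2 and 1.12 on total reads. Actb (beta-actin) gave 598 and 984 WT reads against 2128 and 2034 (log2 difference 0.75 ± 0.63 SE, unadjusted p = 0.278, limma). Of 17 capping, severing and monomer-binding genes, 14 lay above 0, with a median of 0.22. Cfl2, the muscle cofilin that severs filaments, gave 11 and 8 reads against 40 and 33 for the KO label (log2 difference 1.13, unadjusted p = 0.0203, limma). Cap2, a cyclase-associated protein of muscle with a proline run of 10 codons, had 17 and 6 against 1 and 5 (log2 difference -1.66, unadjusted p = 0.0297, limma). Its count in KO-labelled replicate 1 was under the floor of 3 reads. Of the 10 adhesion proteins that bind Ena/VASP, 7 lay above 0, with a median of 0.19. Apbb1ip, the adaptor RIAM, had the smallest p-value there (unadjusted p = 0.104, limma). With a library left out the median ran from 0.071 to 0.57 for the capping and severing genes and from 0.042 to 0.22 for the adhesion proteins. No gene of these lists passed an adjusted p-value of 0.05.

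**Figure D5:**
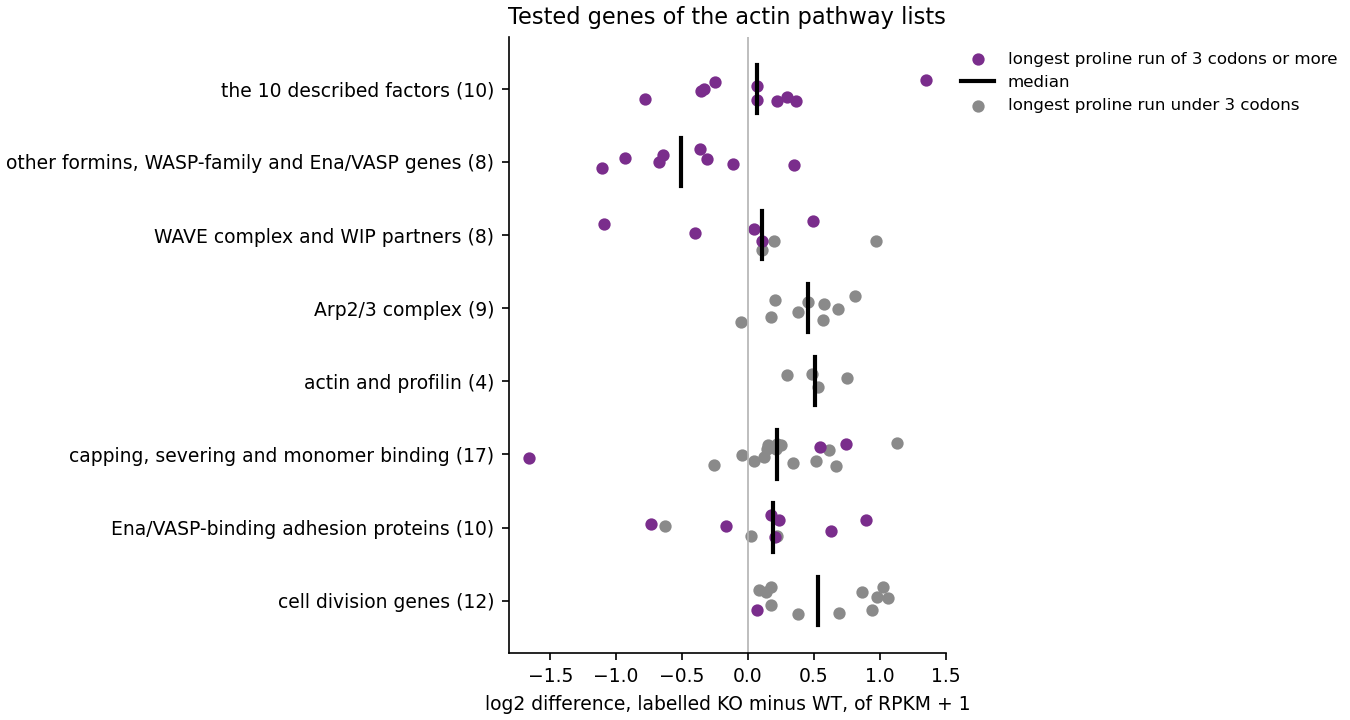
Log2 difference of RPKM + 1, labelled KO minus WT, for each tested gene of the actin lists, with the number tested in parentheses and the median as a bar. Purple points have a proline run of at least 3 codons; the 8 other formin, WASP-family and Ena/VASP genes have a median of -0.51, the 10 described factors 0.066 and the Arp2/3 genes, which have no such run, 0.46.

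Markers of the labelled cell type were read in every library, although Myf5 had no read in KO-labelled replicate 2. Of 10 myoblast markers 9 had differences below 0 (50.0% of all genes tested), with a median of -0.95. Among them 4 had an unadjusted p-value under 0.05 (7.32% of all genes tested) and none an adjusted one (limma). The summed level of the 10 markers was 341 and 205 RPKM for WT against 122 and 136 RPKM for the KO label. Pax7, whose promoter drives the Cre, had 30 and 10 WT reads against 5 and 7, and Myf5 had 8 and 4 against 2 and 0. Vcam1 went the other way, at 5.42 and 11.7 RPKM for WT against 20.01 and 13.0 RPKM. Itga7 was highest in KO-labelled replicate 1, at 29.7 RPKM, and Myog made up 91.0 RPKM of the sum in WT replicate 1 but 4.26 RPKM in WT replicate 2. Fibroblast markers (9 of 10 tested, Tcf21 at 0) had 7 differences above 0 and summed levels of 477 and 285 RPKM against 838 and 369 RPKM. Endothelial markers (8 of 8 tested) had 7 above 0 and sums of 229 and 336 RPKM against 343 and 411 RPKM, and mural markers (5 of 8 tested, Tagln at 0) had 4 below 0 and sums of 167 and 128 RPKM against 105 and 114 RPKM. Immune markers had 2 of 4 tested on each side of 0, with Itgam and Cd3e at 0, and sums of 45.7 and 60.6 RPKM against 56.9 and 49.5 RPKM. On total reads the median of the myoblast list was -0.39, that of the mural list went from -0.59 to 0.013, and that of the fibroblast list from 0.69 to 1.30. The endothelial median went from 0.46 to 1.01 and the immune median from 0.054 to 0.64. With a library left out the mural median ran from -0.80 to -0.29, and after removal of the GC and length trend it was -0.20. Without KO-labelled replicate 1 the fibroblast median was 0.044. In bulk libraries fewer cells of a type and fewer footprints per cell cannot be told apart, and the part of cell composition in the values above was not tested.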

How the data were processed

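Ribo-seq of primary myoblasts gave 2 WT libraries and 2 labelled KO, grouped and numbered by the labels. Per the study's methods and the submitters' processing notes, cycloheximide-treated lysates were digested with RNase I, and fragments were recovered on a size-exclusion resin and a gel. Low-quality, adapter, rRNA and tRNA reads were removed, and the rest were aligned with TopHat2 to mm10 and counted with HTSeq on Ensembl 97 genes (tool versions, strand use and the handling of multiply mapped reads are not given in the sources used here). The authors deposited RPKM, 1 column for each library. Their low values were whole multiples of 1 read for 100.0% of values (tolerance 0.01), which gave the reads quoted. The denominators were in proportion to size factors from median-of-ratios scaling (0.912, 0.713, 1.37 and 1.22), with 1 multiplier shared by all libraries. A shift common to most genes is therefore invisible. A floor of 3 reads was equal to 4.98, 6.37, 3.31 and 3.71 RPKM for a gene of 1 kb. Without molecular identifiers in the reads, floors and intervals describe counting error alone. No matched RNA values were used here, so a footprint level is not a translational efficiency, and sums over a gene give no position within it.

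From these values, log2(RPKM + 1) was tested with limma 3.58.1 (R 4.3.3; mean-variance trend, group as the only term, two-sided, Benjamini-Hochberg adjustment) on 11363 genes, those whose mean RPKM was 1 or more. For genes of low level this log2 scale understates differences. Coding sequences came from GENCODE vM21, where 99.7% of the genes had an identifier. All 10 genes were named. Of each actin list the gene with the smallest p-value and those with an unadjusted p-value under 0.05 were named. The members and the lists were chosen with earlier results of these data known, so lists are described by counts and medians without a test. Alternatives covered the pseudocount, filters on low values, the variance model, scaling, a replicate block, GC content and length, voom on the recovered reads, and leaving out each library. The sequences of 2 runs and 1 further list are not reported here.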

Additional observations from a re-analysis of the deposited data

How the results depend on the processing

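No gene of the 10 passed an adjusted p-value of 0.05 under any alternative (limma, smallest 0.289, for Diaph3 on total reads). Of 177 values of the 10 genes under alternatives, 16 changed sign, and those of Diaph2, Diaph3 and Wasf2 never did. On total reads, which moved the median of all genes by 0.47, Fmnl3, Wasl and Vasp became 0.22, 0.22 and 0.34 and only 1 of the 10 genes lay below 0. With the GC and length trend removed, alone or with the replicate block, Daam1 became -0.095, Vasp 0.086, Diaph2 0.052 and Fmnl2 0.018. With a library left out (the lone library of a group is assumed to vary like the other group), Diaph1 ranged from -0.070 to 0.79, Daam1 from -0.34 to 0.47, Fmnl2 from -0.36 to 0.80, Wasl from -0.68 to 0.012, Vasp from -0.59 to 0.089 and Enah from -0.17 to 0.30. The sign changed without WT replicate 2 in Diaph1, Daam1, Fmnl2 and Enah, without WT replicate 1 in Wasl and Vasp, without KO-labelled replicate 1 in Daam1 and Fmnl2, and without KO-labelled replicate 2 in Enah. The median of the 10 genes was -0.25 with a mean RPKM of at least 5, which tested 7 of them. Left-out libraries moved the number of the 10 genes below 0 from 2 to 8, and the number with an unadjusted p-value under 0.05 between 0 and 1. That number was 0 with no filter, with a mean RPKM of at least 5 (where Diaph2, Diaph3 and Enah were not tested) and with GC removal plus the block. Over the 13 alternative fits of all 4 libraries that tested it, those with no filter and with GC removal plus the block included, the Diaph3 difference was 1.13 to 2.12, with an unadjusted p-value under 0.05 in 11 of 13. The number of all genes past an adjusted p-value of 0.05 in limma was 12 and became 0 with a pseudocount of 0.1, no filter, a mean RPKM of at least 5, no variance trend, protein-coding genes only, total reads, the replicate block, GC removal, and each library left out (0 to 0). It was 1 with GC removal plus the block, 2 with at least 40 reads, 21 with a robust prior and 79 with voom, 78 of them lower, with none of the 12 and none of the 10 genes among them. In these fits 430 to 1854 genes had an unadjusted p-value under 0.05. Genes past 2-fold and an unadjusted p-value of 0.05 numbered 469 with a mean RPKM of at least 5, 1747 on total reads, 1224 with voom and 422 to 1459 with a library left out. The replicate block left each of the 10 genes on its side of both thresholds. Replicate differences of the groups correlated at 0.119 over 6500 genes, with 2 pairs, so the numbers are not taken to pair libraries. The cause of these changes was not tested.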
